A study of Mus musculus with 12 samples.

Results

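Trim12a, Trim12c, Trim5, Trim30a, Trim30b, Trim30c, Trim30d and Trim34a are 8 neighbouring genes of the tripartite motif (TRIM) family on mouse chromosome 7. They were chosen by name, as the Trim12, Trim30, Trim5 and Trim34a genes of this locus, because levels in these libraries were already known to differ between NOD and B10 islets. All 8 had an entry in the deposited table, which counts reads for 38561 genes. The low count filter was passed by 6 of the 8, and Trim30b and Trim30c did not pass it.

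RNA was sequenced from picked pancreatic islets of male mice, 11 weeks old, and every library came from a different mouse. The mice fall into 4 groups of 3. The group B10 (C57BL/10SnSg) and the group NOD (NOD/LtJ) carry no transgene. The groups B10_insHEL and NOD_insHEL carry in addition Tg(ILK3mHEL)3Ccg, in which an insulin promoter drives hen egg lysozyme, so that the protein is made in beta cells. All 4 groups carry a Rag deletion (129S7(B6)-Ragtm1Mom), which leaves the mice without mature B and T cells, and the MHC haplotype k (BR-H2k), and all mice were normoglycemic. The islets were digested and washed with α-amanitin and actinomycin D, which block transcription during isolation.

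Proteins of the TRIM family are ubiquitin ligases with a RING finger, a B-box and a coiled coil, and many are induced by interferon. In primates TRIM5α recognises the capsid of incoming retroviruses through its C-terminal B30.2 domain and also activates innate signalling. Rodents have several copies of this gene, named Trim5, Trim12a and Trim12c, next to the related Trim30 genes, whose best studied product, TRIM30α, limits Toll-like receptor signalling by removing the adaptors TAB2 and TAB3.

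The cluster spans 263.4 kb of chromosome 7, from 104244457 to 104507849 on GRCm38. From the centromeric end the genes are Trim34a on the plus strand (104244457 to 104262234) and then, all on the minus strand, Trim5 (104263386 to 104288094), Trim12a (104299894 to 104315466), Trim12c (104338754 to 104353362), Trim30b (104355382 to 104369884), Trim30c (104382065 to 104400837), Trim30a (104409025 to 104465193) and Trim30d (104470014 to 104507849). All are annotated as protein coding in GENCODE vM21.

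The copies are close to each other in sequence, which bears on how reads can be assigned between them. The first 90 coding bases of the members whose levels the results turn on are shown here from GENCODE vM21 on GRCm38, minus strand, with the bases that differ from the first sequence of each set in capitals.
Trim12a (chr7:104307242-104307331): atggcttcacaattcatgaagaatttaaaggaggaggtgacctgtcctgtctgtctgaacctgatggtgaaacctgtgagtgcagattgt
Trim5 (chr7:104279643-104279732): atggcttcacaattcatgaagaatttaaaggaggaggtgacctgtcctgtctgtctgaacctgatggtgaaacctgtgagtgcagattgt
Trim12c (chr7:104348258-104348347): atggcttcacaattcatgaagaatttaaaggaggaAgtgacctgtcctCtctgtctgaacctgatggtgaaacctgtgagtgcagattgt
Trim30a (chr7:104435912-104436001): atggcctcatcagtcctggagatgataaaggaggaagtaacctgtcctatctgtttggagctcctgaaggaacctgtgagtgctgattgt
Trim30d (chr7:104487906-104487995): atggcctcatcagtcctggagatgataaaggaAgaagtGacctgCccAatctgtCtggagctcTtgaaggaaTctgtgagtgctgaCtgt

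Over these 90 bases Trim5 had 0 differences from Trim12a and Trim12c had 2, while Trim30d had 8 differences from Trim30a. Over the whole aligned coding sequence, Trim12a and Trim5 were 97.1% identical, Trim12c and Trim5 96.6% and Trim12a and Trim12c 96.4%. Trim30a and Trim30d were 90.2% identical, and Trim12a and Trim30a 75.5%. The coding sequence of Trim12a has 297 codons before the stop, against 497 in both Trim12c and Trim5, so the reference Trim12a protein lacks the C-terminal part that carries the B30.2 domain in the longer relatives. Trim30b, with 203 codons, is also short, while Trim30a has 496, Trim30c 513, Trim30d 497 and Trim34a 485.

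To show how much of each gene a short read could not place, every window of 50 bases along the annotated transcripts was looked up in the transcripts of the other genes of the cluster. An exact copy existed for 28.7% of the Trim12c windows and 29.5% of the Trim5 windows, mostly in each other, and for 7.86% of the Trim12a windows. For Trim30a the share was 5.98%, all of it in Trim30d, and for Trim30d 7.49%, of which 243 of 285 windows were in Trim30a, 31 in Trim30b and 11 in Trim30c. Trim34a had the highest share of the members, 39.8%, all of it in Trim34b, a second copy at the same locus. With up to 2 mismatches allowed, the shares were 62.4% for Trim12c, 61.2% for Trim5, 63.6% for Trim34a and 17.1% for Trim12a, and with exact windows of 100 bases they were 8.03% for Trim12c, 9.73% for Trim5 and 2.62% for Trim12a. The read length and the treatment of reads with several hits are not given in the sources used here. Each level of Trim12a, Trim12c, Trim5 and Trim34a is therefore uncertain by the reads that its near-identical copies can exchange with it. The Trim12a annotation includes a transcript that keeps an intron, which adds unique windows. This lowers both its percentage of shared windows and its level per length.

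**Figure D1:**
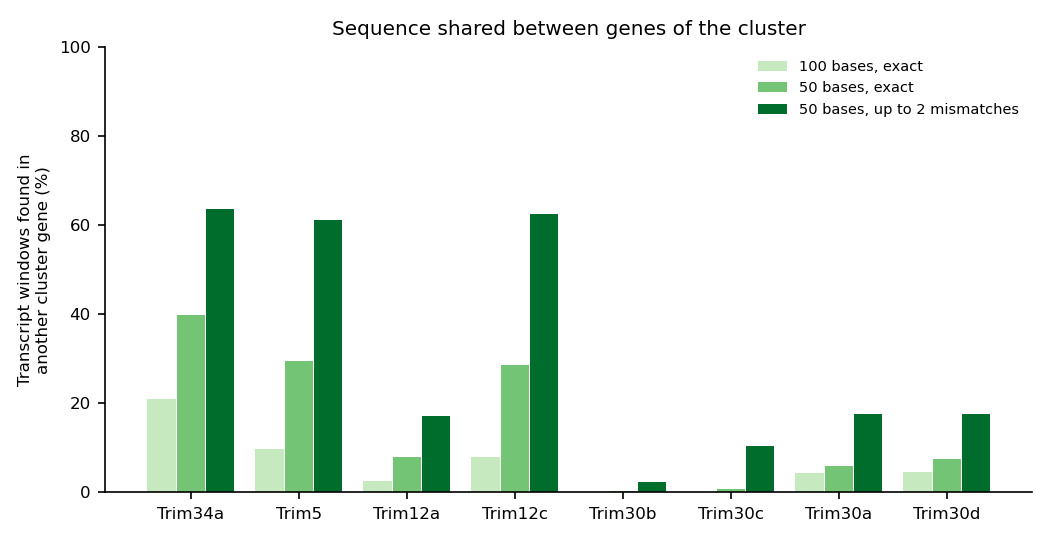
Share of transcript windows of each gene (vertical axis, %) that also occur in another gene of the cluster, for exact windows of 100 and 50 bases and for 50 bases with up to 2 mismatches; genes are in chromosome order. Trim34a, Trim5 and Trim12c reach 61.2% to 63.6% with mismatches allowed, and the Trim30 genes stay at or below 17.7%.

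The starts of these genes are also alike. In the promoter windows of RefSeq on GRCm38.p6, which run from 250 bases before to 50 after each start, Trim5 and Trim12a were identical over 241 of 241 aligned bases, Trim12a and Trim12c over 247 of 260, and the upstream Trim30a window and Trim30d over 276 of 295. The core of the element bound by interferon-activated factors, TTTC followed by any 2 bases and TTTC again, was searched on both strands, and 6 of 8 members had a match. A match stood in at least 1 window of 3.99% of 27025 genes and of 3 of 43 other Trim genes. Of the 27 listed interferon-stimulated genes that had a promoter window, 15 had a match. The matches are shown in capitals with the 10 bases on either side, since members of 1 subfamily share them almost letter for letter.
Trim5 (chr7:104288136-104288165, minus strand): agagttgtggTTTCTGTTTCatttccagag
Trim12a (chr7:104315466-104315495, minus strand): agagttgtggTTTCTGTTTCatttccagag
Trim12c (chr7:104353359-104353388, minus strand): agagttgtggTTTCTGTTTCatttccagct
Trim30a (chr7:104465210-104465239, minus strand): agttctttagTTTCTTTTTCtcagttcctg
Trim30d (chr7:104507871-104507900, minus strand): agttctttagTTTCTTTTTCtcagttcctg
Trim34a (chr7:104244457-104244486, plus strand): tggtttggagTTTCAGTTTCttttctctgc

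No match was found in the windows of Trim30b and Trim30c, nor in those of Trim6 and Trim34b, other TRIM genes of the locus, and Trim30a had a further match at its downstream start. A match is a run of letters and was not tested for binding.

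Library totals ran from 2212062 counts (NOD_insHEL replicate 3) to 21138456 (B10 replicate 2), so that 1 count stood for 0.0451 to 0.470 CPM. CPM are read counts scaled to a common library size by TMM, and values are given as mean ± SD over 3 mice. The libraries were nearly free of lymphocyte RNA: 4 of 10 lymphocyte markers had 0 counts in every library and 1 passed the filter. Islet endocrine markers summed to 213109 to 322438 CPM. Transcripts of acinar cells, the enzyme-producing cells around the islets, differed between groups: the 15 acinar markers summed to 3317 to 4272 CPM in B10 and 41.8 to 2325 CPM in B10_insHEL, and to 138 to 246 and 54.9 to 94.1 CPM in NOD and NOD_insHEL. The labels call the B10 libraries sample101, sample102 and sample104, whereas the other 9 carry numbers from 1 to 29, without saying what these mean. If they mark a batch, it cannot be told apart from the group in comparisons that use B10, whereas NOD_insHEL against B10_insHEL and NOD_insHEL against NOD lie within the lower numbers. In such bulk tissue, fewer cells of a type and less RNA per cell cannot be told apart.

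Trim12a, the short TRIM5 relative, was detected in all 6 libraries of the B10 background and had 0 counts in all 6 of the NOD background. The counts were 92, 83 and 73 in B10 replicates 1 to 3 and 34, 42 and 44 in B10_insHEL, which correspond to 5.38, 3.74 and 4.98 CPM and to 3.65, 3.65 and 4.54 CPM. Group means were 4.70 ± 0.856 CPM (n = 3) in B10 and 3.95 ± 0.511 CPM (n = 3) in B10_insHEL. Against 3 counts summed over the NOD side, the level was at least 50.3-fold lower in NOD than in B10 and at least 26.4-fold lower in NOD_insHEL than in B10_insHEL, the latter within the lower library numbers. These bounds and all further NOD to B10 values of the members are descriptions without a test, because the members were chosen for differences in the same libraries.

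Acinar RNA also differed among the B10_insHEL libraries. Replicates 1 and 3, whose acinar score (the mean log2 CPM of the acinar markers) was 2.09 and 1.16, stood at 3.65 and 4.54 CPM, and replicate 2, with a score of 7.06, at 3.65 CPM. The part of acinar RNA in the level of Trim12a was not tested. Reads were mapped to GRCm38, an assembly of C57BL/6J, and a NOD genome was not used here, so the part of sequence differences between NOD and this assembly in any strain difference of the locus was not tested.

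Trim12c, the full-length paralog next to Trim12a that is known to act with TRAF6 in interferon and NF-κB signalling, was lower in the NOD background but detected throughout. Its level in replicates 1 to 3 was 9.01, 7.75 and 9.34 CPM in B10 and 6.88, 10.1 and 9.80 CPM in B10_insHEL. In NOD the level was 1.73, 3.56 and 3.17 CPM, and with the transgene 2.40, 2.51 and 1.88 CPM. All 6 NOD-background libraries lay below all 6 B10-background libraries. The log2 difference, NOD minus B10, was -1.77 (SE 0.19) averaged over the transgene, -1.63 (SE 0.26) without and -1.92 (SE 0.29) with insHEL. With the acinar score as a covariate it was -1.62 (SE 0.26). The score varied far more within B10_insHEL (1.16 to 7.06) than within the other groups. This and all later values with that covariate therefore rest largely on B10_insHEL replicate 2.

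Trim5, the mouse gene that keeps the name of the primate restriction factor, went the other way. B10 islets had 0.995, 0.631 and 1.02 CPM and B10_insHEL islets 0.967, 0.870 and 0.619 CPM. NOD islets had 2.31, 2.40 and 5.33 CPM, and NOD_insHEL islets 2.59, 2.77 and 8.45 CPM. Every NOD-background library was above every B10-background library. The 2 highest values came from the 2 shallowest libraries, NOD replicate 3 (37 counts) and NOD_insHEL replicate 3, whose 18 counts give an exact 95% counting interval of 5.01 to 13.4 CPM. The averaged log2 difference was 2.05 (SE 0.34), with 1.88 (SE 0.45) without and 2.22 (SE 0.52) with insHEL.

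Of the 6 members that passed the filter, Trim12a and Trim12c lay below and Trim5 above without overlap between the 2 backgrounds. Over all 15352 genes tested, 11.3% showed no overlap between the same 6 and 6 libraries, 4.92% with NOD above and 6.4% with NOD below. The averaged log2 difference reached 1 in size for the same 3 members, against 7.66% of all genes, and since the members were chosen on this contrast nothing is read from these counts.

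**Figure D2:**
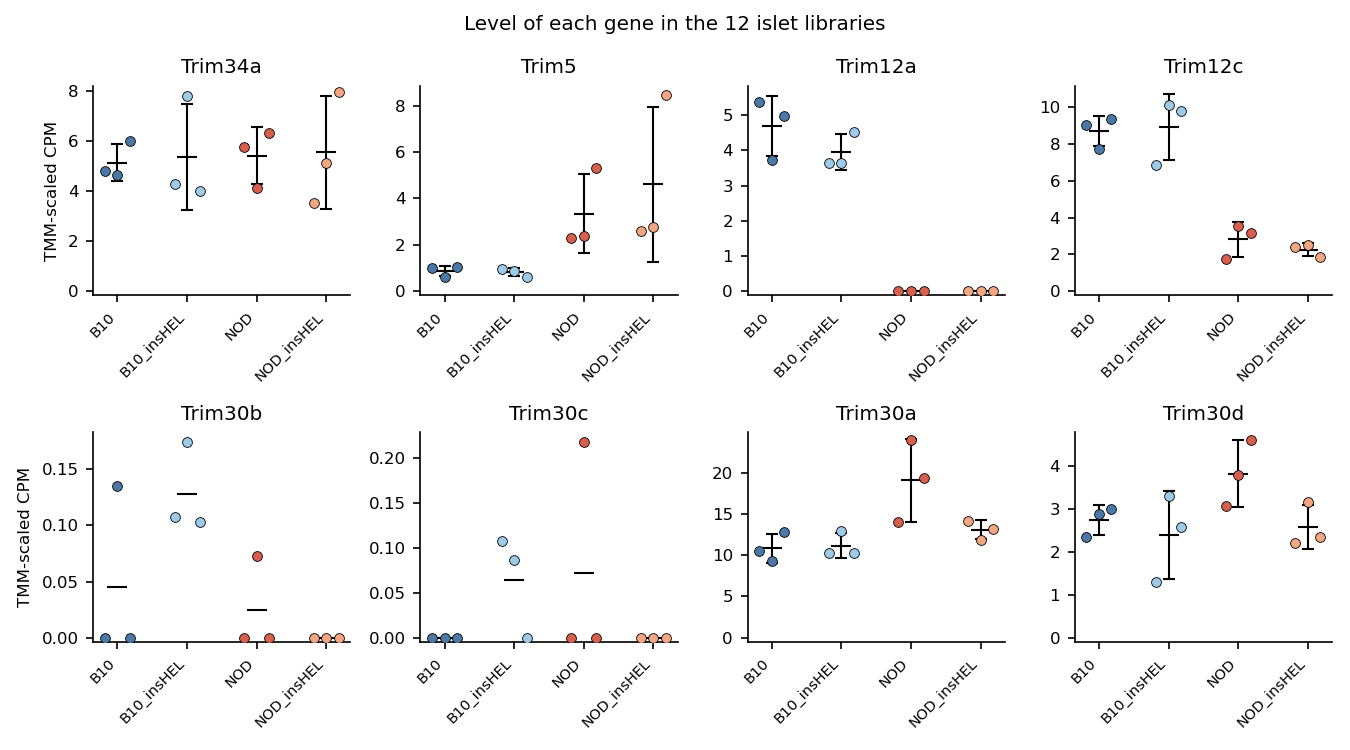
TMM-scaled CPM of each of the 8 genes in chromosome order (vertical axes differ between panels), with 1 point per library, a short horizontal line for the group mean and a bar for the SD (n = 3; not drawn for Trim30b and Trim30c, which had at most 3 counts a library). Trim12a is at 0 in all 6 NOD-background libraries, Trim12c is lower and Trim5 higher there.

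Because Trim12a, Trim12c and Trim5 can exchange reads, their counts were also added up, which no split of reads between them can change. The sum does not make up for reads discarded for having several hits, or exchanged with genes outside it. B10 and B10_insHEL islets had summed levels of 14.3 ± 1.87 and 13.7 ± 1.91 CPM, and NOD and NOD_insHEL islets 6.17 ± 2.23 and 6.86 ± 3.01 CPM (n = 3 each). The B10-background libraries ranged from 11.5 to 15.4 CPM and the NOD-background libraries from 4.05 to 10.3 CPM, so the sums did not overlap either. The averaged log2 difference of the sum was -1.21 (SE 0.18).

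Within that sum the composition differed by background. Trim12a held 32.8% of the 757 summed counts in B10 (exact 95% binomial interval 29.4 to 36.2%) and 28.6% of 420 in B10_insHEL (24.3 to 33.2%), against 0 of 190 in NOD (up to 1.92%) and 0 of 114 in NOD_insHEL (up to 3.18%). Trim5 held 6.08% in B10 (4.48 to 8.02%) and 5.95% in B10_insHEL (3.89 to 8.66%), but 51.6% in NOD (44.2 to 58.9%) and 57.9% in NOD_insHEL (48.3 to 67.1%). Trim12c held 61.2% and 65.5% in B10 and B10_insHEL and 48.4% and 42.1% in NOD and NOD_insHEL. In single libraries the Trim5 share ran from 4.14 to 8.41% in the B10 background and from 40.2 to 81.8% in the NOD background, the highest being the shallowest library with 22 counts in all. Shares pool the counts of 3 mice, and their intervals cover counting error only.

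**Figure D3:**
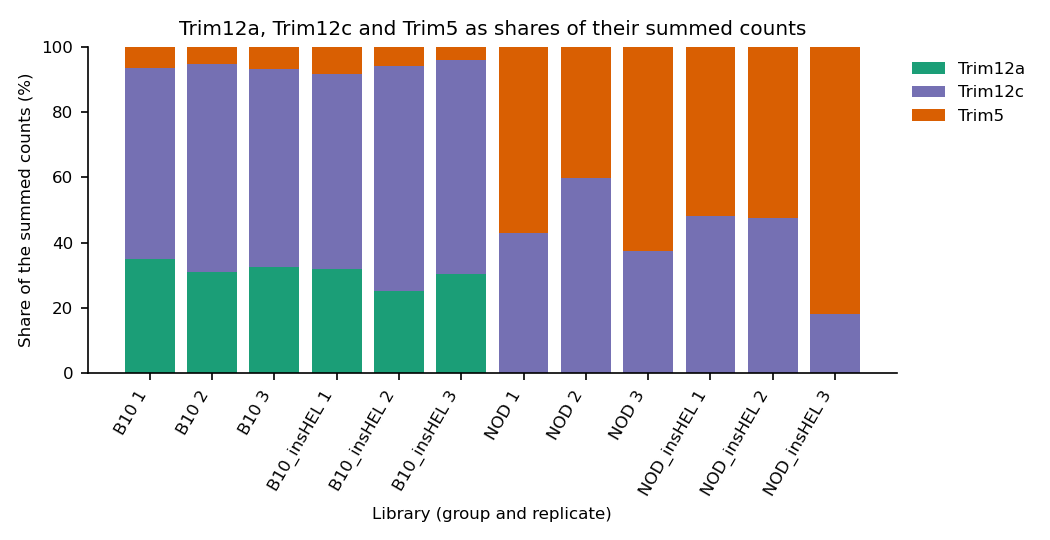
Trim12a, Trim12c and Trim5 as shares of their summed counts (vertical axis, %) in each of the 12 libraries. Trim12a takes 25.0 to 35.0% in the B10 background and 0 in the NOD background, where Trim5 takes 40.2 to 81.8%.

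Trim30a, the negative regulator of Toll-like receptor signalling, had the highest mean level per length of the members in all 4 groups. In B10_insHEL replicate 3, however, Trim12c lay above it (2.62 against 2.48 CPM per kb). Levels per length make no allowance for windows shared between genes. Replicates 1 to 3 of Trim30a stood at 10.5, 9.24 and 12.7 CPM in B10 and at 10.3, 12.9 and 10.2 CPM in B10_insHEL. In NOD they stood at 14.0, 24.0 and 19.3 CPM, and with the transgene at 14.2, 11.9 and 13.1 CPM. The NOD libraries were above all B10 libraries, as they were for 23.8% of all genes tested, while the NOD_insHEL and B10_insHEL libraries overlapped. The log2 difference, NOD minus B10, was 0.83 (SE 0.19) without insHEL, 0.23 (SE 0.21) with it and 0.53 (SE 0.14) averaged. Endothelial markers differed between the strains as well. Of 8 tested, 7 were higher and 0 lower in NOD without insHEL (median log2 difference 0.67, with 28.4% of all genes called). With it 0 were higher and 2 lower (median 0.14, 12.1% of all genes), and averaged 6 were higher and 1 lower (median 0.39, 33.3%). The 9 markers summed to 895 to 980 CPM in B10 and 1226 to 1731 CPM in NOD, with none at 0, and to 1044 to 1115 and 936 to 1117 CPM in B10_insHEL and NOD_insHEL. Of 20 leukocyte and macrophage markers, 5 were higher and 2 lower in NOD without insHEL (median 0.27). With it 1 was higher and 0 lower (median 0.20), and averaged 5 were higher and 2 lower (median 0.14). The part of these cell types in the Trim30a difference was not tested.

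Trim30d, a full-length paralog of Trim30a whose own function is less studied, had 2.74 ± 0.352 CPM in B10 and 2.39 ± 1.02 CPM in B10_insHEL. In NOD it had 3.81 ± 0.777 CPM, and 2.57 ± 0.519 CPM with the transgene (n = 3 each). Its NOD libraries (3.06 to 4.61 CPM) lay above the B10 libraries (2.34 to 3.00 CPM) by a small gap. The NOD libraries lay above all B10 libraries for 23.8% of all genes tested. In the transgenic groups the Trim30d levels overlapped. The averaged log2 difference was 0.28 (SE 0.24), close to its error, and it was 0.62 (SE 0.35) with the acinar score and 0.15 (SE 0.28) with islet number as a covariate. It was 0.13 without B10_insHEL replicate 1, 0.44 without B10_insHEL replicate 2 and 0.17 without NOD_insHEL replicate 2. Gm16464, a pseudogene inside Trim30d, had 2.43 to 3.18 CPM as group means, and whether the counting used strand is not given in the sources used here.

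Trim30b and Trim30c were close to silent in these islets. Trim30b had 7 counts in the 6 B10-background libraries and 1 in the 6 NOD-background libraries, a ratio of pooled CPM, NOD over B10, of 0.228 with an exact 95% counting interval of 0.00506 to 1.77. Trim30c had 2 and 3 counts, a ratio of 2.39 (0.274 to 28.6). At this depth no strain difference was detectable for either. The 4 Trim30 genes together had 13.6 ± 1.87 and 13.7 ± 2.42 CPM in B10 and B10_insHEL and 23.0 ± 5.58 and 15.6 ± 0.688 CPM in NOD and NOD_insHEL (n = 3 each), with an averaged log2 difference of 0.47 (SE 0.13), or 0.74 (SE 0.18) with the acinar score as a covariate.

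Trim34a, an interferon-inducible TRIM gene at the centromeric end of the cluster, had group means between 5.15 and 5.56 CPM. The means were 5.15 ± 0.742 and 5.38 ± 2.12 CPM for B10 and B10_insHEL, and 5.42 ± 1.14 and 5.56 ± 2.25 CPM for NOD and NOD_insHEL (n = 3 each). The averaged log2 difference was -0.03 with a 95% interval of -0.48 to 0.41. With the acinar score as a covariate it was 0.44 (SE 0.29). The libraries of the 4 groups overlapped.

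Compared per kilobase of annotated exon, the order of the members differed between backgrounds. In B10 the means were 2.63 CPM per kb for Trim30a, 2.33 for Trim12c, 1.99 for Trim34a, 0.813 for Trim12a, 0.729 for Trim30d and 0.239 for Trim5. In NOD they were 4.64 for Trim30a, 2.09 for Trim34a, 1.01 for Trim30d, 0.907 for Trim5 and 0.754 for Trim12c, on the same scale. Spreads of neighbours in this order met in several places. Trim30a and Trim12c in B10 (SD 0.433 and 0.224), Trim12a and Trim30d in B10 (SD 0.148 and 0.0936), and Trim30d, Trim5 and Trim12c in NOD (SD 0.207, 0.465 and 0.257) were not separated by more than the larger SD of each neighbouring pair.

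The transgene contrasts were not used to choose the members and were tested with edgeR's quasi-likelihood test, Benjamini-Hochberg adjusted over all genes tested. They ask whether lysozyme made in beta cells, without lymphocytes to recognise it, goes with a change of these genes. In B10 islets, 0 of 6 members passed (0 at an unadjusted p below 0.05, and DESeq2 called 0 with 0 unadjusted), while 6.85% of all genes did. The log2 differences, B10_insHEL minus B10, lay between -0.25 and 0.08 with adjusted p from 0.686 to 0.952. The intervals do not show that levels were alike: for Trim5 the 95% interval ran from -1.19 to 1.02.

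In NOD islets, 0 of 5 members passed (DESeq2 also called 0), while 7.06% of all genes did. Trim12a could not be tested there, having 0 counts. Trim30a came nearest: NOD_insHEL minus NOD was -0.54 (SE 0.20, 95% interval -0.97 to -0.12), with an unadjusted p of 0.0146 and an adjusted p of 0.108 in edgeR's quasi-likelihood test. It was the 1 member with an unadjusted p below 0.05 in edgeR, and DESeq2 also had 1. The NOD and NOD_insHEL libraries of Trim30a overlapped, since NOD replicate 1 (14.0 CPM) lay just below NOD_insHEL replicate 1 (14.2 CPM). Without NOD replicate 1 the difference was -0.73 and passed (adjusted p = 0.0393, edgeR), and without NOD replicate 2 it was -0.33 (adjusted p = 0.435, edgeR).

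For the other members tested in NOD islets the differences were -0.53 for Trim30d, -0.25 for Trim12c, -0.10 for Trim34a and 0.26 for Trim5. The sum of the Trim30 genes differed by -0.55 (SE 0.19, adjusted p = 0.0849 in edgeR). It passed when genes with low counts were kept in the table (adjusted p = 0.0469) and without NOD replicate 1 (-0.73, adjusted p = 0.0309), both with edgeR. Over the other alternatives its adjusted p ranged up to 0.344, reached without NOD replicate 2 (-0.37, edgeR). The sum of Trim12a, Trim12c and Trim5 differed by 0.01 (SE 0.29).

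Endothelial markers also differed in this contrast. Of 8 endothelial markers tested, 5 fell in NOD_insHEL, while 7.06% of all genes were called. The median log2 difference of the 8 was -0.50, against -0.01 over all genes tested. Among those that fell were Tek (-0.63, adjusted p = 0.00759) and Plvap (-0.62, adjusted p = 0.0119, edgeR). In B10 islets 1 of the 8 rose with the transgene and 0 fell (median 0.17), while 6.85% of all genes were called. The 9 markers summed to 1226 to 1731 CPM in NOD and 936 to 1117 in NOD_insHEL, with no marker at 0 in either group, and their part in the Trim30a difference was not tested. The 20 leukocyte and macrophage markers summed to 185 to 267 CPM in NOD and 221 to 281 in NOD_insHEL, and 1 of them rose and 1 fell.

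Whether the transgene difference itself differed between strains was tested as an interaction, the transgene difference in NOD minus that in B10. Of 5 members 0 passed in edgeR and 0 in DESeq2, while 0.0586% of all genes did in edgeR. Trim30a had the lowest adjusted p (-0.60, adjusted p = 0.407 in edgeR) and was the 1 member with an unadjusted p below 0.05 there, against 0 in DESeq2.

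**Figure D4:**
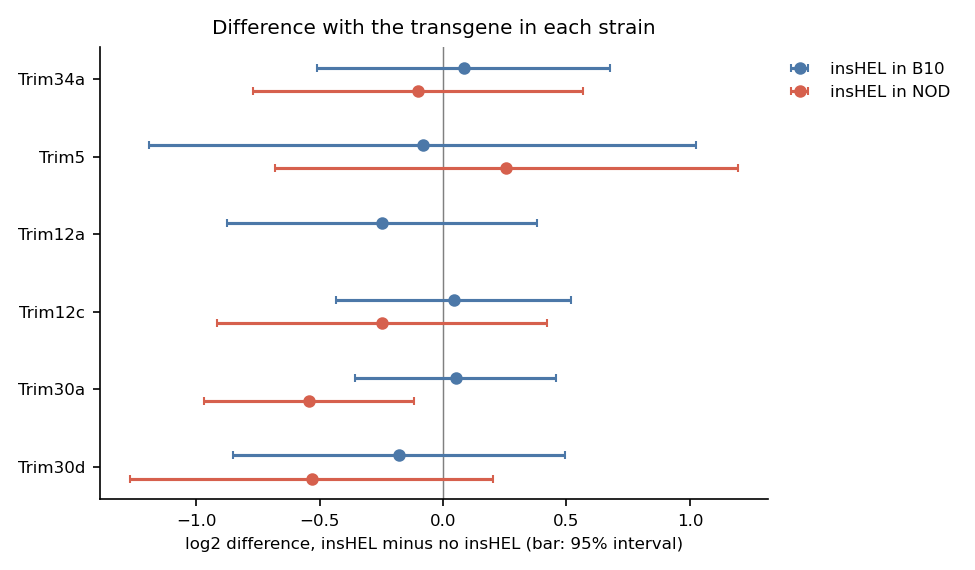
log2 difference with the transgene (horizontal axis) for each tested gene in B10 and in NOD islets, with 95% intervals. Trim30a in NOD islets, at -0.54, is the 1 interval that leaves out 0, and it did not pass after adjustment.

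Other genes of the locus were examined for the same strain contrast. Trim6, the next gene on the centromeric side, which encodes a ligase that makes unanchored ubiquitin chains in interferon signalling, was higher in NOD-background islets. B10 and B10_insHEL islets had 0.586 ± 0.107 and 0.399 ± 0.280 CPM, and NOD and NOD_insHEL islets 4.34 ± 1.19 and 2.47 ± 0.259 CPM (n = 3 each), without overlap between backgrounds. The averaged log2 difference was 2.74 (SE 0.31), and with insHEL alone 2.62 (SE 0.49). These strain differences are given without p, because the locus was chosen for strain differences in the same libraries. NOD_insHEL minus NOD was -0.79 (adjusted p = 0.207, edgeR), although the libraries of these groups did not overlap, as was the case for 26.6% of all genes.

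Trim34b, the copy of Trim34a, had 40 counts in the NOD background and 3 in the B10 background, a ratio of pooled CPM of 21.3 (exact 95% counting interval 6.77 to 107). With up to 2 mismatches, 91.0% of its windows occur in Trim34a, so its counts can be exchanged with that gene. Trim30e-ps1, a pseudogene of the Trim30 group, had 19 counts in 4 of the 6 NOD-background libraries and 0 in the B10 background. NOD replicate 1 and NOD_insHEL replicate 3 also had 0 counts, so the backgrounds overlapped. Against 3 counts on the B10 side, the pooled level was 10.1-fold higher in NOD. That figure allows for neither counting error in the 19 counts nor spread between mice.

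Within 1 Mb of the cluster lie 133 further genes, of which 92 are olfactory receptors and 117 had 0 counts in every library. Of the 9 that could be tested, 5 were higher and 1 lower in NOD (averaged over the transgene), against 15.7% higher and 17.6% lower of all genes. Besides Trim6 these include the processed pseudogenes Gm5900 (0.94) and Gm4887 (-0.57) and the beta globin genes Hbb-bt (0.96) and Hbb-bs (0.77), which are near-identical to each other and mark red blood cells. Their median log2 difference was 0.61, against 0.01 over all genes tested.

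**Figure D5:**
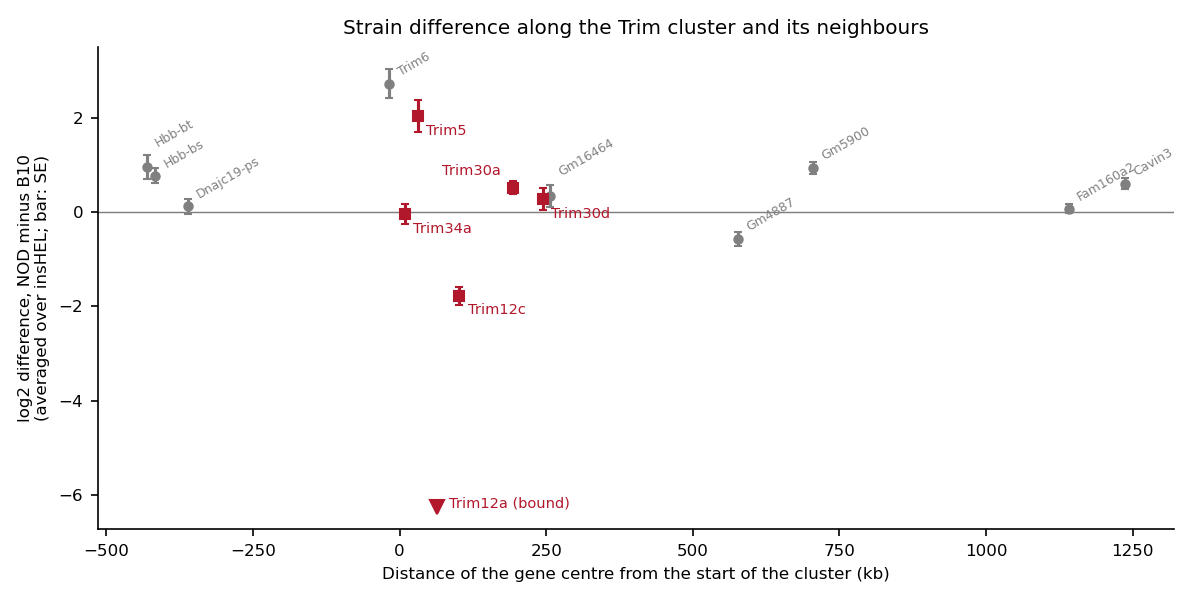
log2 difference, NOD minus B10 averaged over the transgene (vertical axis, bars SE), against the distance of each gene from the start of the cluster (kb). Red squares are members, the red triangle is the bound of Trim12a (at least 76.9-fold lower) and grey circles are the other tested genes within 1 Mb, and Trim12a and Trim12c lie below while Trim5 and Trim6 lie above their neighbours.

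Other TRIM genes changed in both directions. They were taken by name with no filter on position, so genes on the same chromosome as the cluster were not left out. Of 57 such genes 35 were tested, and 6 were higher and 6 lower in NOD, a share near the 33.3% called of all genes. The highest were Trim35 (0.41), Trim46 (0.36) and Trim11 (0.30), and the lowest Trim66 (-2.58), Trim68 (-0.96) and Trim25 (-0.41), the last a ligase needed for RIG-I activation. With insHEL, Trim9 and Trim68 rose in B10 islets (0.95 and 0.54) and Trim27 in NOD islets (0.42), where Trim8 and Trim47 fell (-0.45 and -0.89). These 2 and 3 of 35 genes are shares near the 6.85% and 7.06% of all genes called in the same contrasts.

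The genes that work with TRIM5 and TRIM30 proteins were followed as a list of 26, of which 24 were tested: the TAK1 complex, the ubiquitin-conjugating enzymes, cyclophilin A, Toll-like receptor adaptors, NF-κB, STING and autophagy factors. Averaged over the transgene, 3 were higher and 4 lower in NOD, against 33.3% of all genes. Tab1, the activator subunit of TAK1, was higher (0.40, adjusted p = 0.0154), as was Ppia, which encodes cyclophilin A (0.51, adjusted p = 0.0189), a gene with many pseudogene copies and therefore uncertain. Nfkb1, a subunit of NF-κB, was lower (-0.44, adjusted p = 0.000293), and so was Traf6, the ubiquitin ligase upstream of TAK1 (-0.36, adjusted p = 0.00258, all edgeR). Within transgenic islets 1 of the 24 passed, Nfkb1 (-0.39), against 12.1% of all genes.

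With the transgene, Sqstm1, the autophagy receptor p62, rose in B10 (0.39, adjusted p = 0.0246) and in NOD islets (0.39, adjusted p = 0.0292). In B10 islets it was the 1 gene of the 24 tested that passed, against 6.85% of all genes. In NOD islets Ube2w, the enzyme that starts ubiquitin chains on TRIM5α, rose as well (0.59, adjusted p = 0.00432), and Tmem173, which encodes STING, fell from 4.83 ± 0.101 to 1.95 ± 0.596 CPM (-1.19, adjusted p = 0.0303, all edgeR). The other 21 genes of the list that were tested did not pass in NOD islets, where 7.06% of all genes were called.

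Interferon-stimulated genes, the class to which several members belong, were followed in a list of 36, all tested. Averaged over the transgene 12 were higher and 4 lower in NOD (median 0.26), against 15.7% higher and 17.6% lower of all genes. The 2 highest were Gbp3 (1.06) and Zbp1 (1.03), and the 2 lowest Rsad2 (-1.09) and Cmpk2 (-1.18). Cmpk2 was also lower without insHEL (-1.08) and with it (-1.29). Within non-transgenic islets 13 were higher and 2 lower (median 0.62, with 28.4% of all genes called). Within transgenic islets 2 were higher and 2 lower (median 0.11, with 12.1% of all genes called). In NOD islets 3 of 36 fell with the transgene and 0 rose (median -0.38), a share near the 7.06% of all genes called. They were Mx1 (-2.70, adjusted p = 0.0173), Oasl1 (-1.79, adjusted p = 0.0162) and Irf7 (named after its values were seen), while in B10 islets 0 of 36 passed in edgeR. Of 14 interferon receptor and signalling genes, 1 was called in the averaged strain difference, Jak2 (lower in NOD, -0.28), against 33.3% of all genes. With the transgene in NOD islets 1 of the 14 was called, Irf3 (-0.48), a share near the 7.06% of all genes.

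The genes most alike to each member over the 12 libraries, by Pearson's r of log2 CPM, are given as a description, since all 12 libraries share the group structure. They were Ivd (0.99), Dio1 and Hjurp for Trim12a; Ceacam1 (0.98), Col6a6 and Cmpk2 for Trim12c; and R74862 (0.95), Pik3ip1 and Plcl1 for Trim5. For Trim30a they were Myct1 (0.96), Spns2 (0.95) and Pdgfrb (0.93), for Trim30d Enkur (0.90), Kcnj15 and Zfp750, and for Trim34a Isl1 (0.86), Cnbd2 and Ikzf4. By Spearman's rho, 2 of the 3 genes stayed the nearest for Trim34a and 0 of the 3 for each other member, so these likenesses depend on the measure.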

How the data were processed

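The deposited file holds raw counts of reads per Ensembl gene, 1 column per library, all 12 of which were used. Per the submitters' processing notes the authors used cutadapt, TopHat2 2.0.8b, HTSeq and DESeq with GRCm38, and per the labels' protocols the libraries came from a stranded mRNA kit. The annotation release, strand setting, counting mode and read length are not given in the sources used here. Symbols and coordinates came from GENCODE vM21 (36639 identifiers, 95.0%, matched), promoters from RefSeq.

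Counts were fitted in edgeR 4.0.16 (R 4.3.3) with TMM scaling, 4 group means over 12 libraries and robust dispersions (common BCV 0.142). Genes passing filterByExpr (15352) were tested two-sided, Benjamini-Hochberg adjusted over all of them, at a threshold of 0.05. The script was tested on simulated data. DESeq2 1.42.0, other scalings, filters, covariates and left-out libraries were alternatives.

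The members and gene lists were chosen with earlier results of these data known. Named were all members, their relatives, the 3 genes most alike to each member, and called neighbours and other Trim genes with the 3 highest and 3 lowest differences. From the other lists, genes were named among the 2 highest and 2 lowest called in a comparison, but not for every list and comparison. The labels give 1 mouse per library. Reads carry no molecular identifiers, so intervals cover counting error only, and 3 counts were taken as the limit that a count of 0 allows. Same-numbered libraries did not deviate together, so the samples were not treated as pairs, although this cannot exclude a pairing.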

Additional observations from a re-analysis of the deposited data

How the results depend on the processing

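The number of members passing the transgene test in NOD islets was 0 under every alternative but 1: leaving out single libraries gave 0 to 1, the 1 being Trim30a without NOD replicate 1. In B10 islets and for the interaction it was 0 under all alternatives run. The number of members with an averaged strain difference of at least 1 on the log2 scale was 3, but 4 without the low count filter, which admits all 8 members, and 1 when members were summed by subfamily, which leaves fewer features. It was 3 under the other alternatives run. Correlations of same-numbered libraries were -0.095 to 0.0803, which shows no pairing by replicate number but cannot exclude it. With the replicate block 0 members passed, while 1032 genes passed for the transgene in B10, 961 in NOD and 8 for the interaction, against 1052, 1084 and 9.

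Over all genes, calls for the transgene in B10 fell to 237 with the acinar score and 578 with islet number as a covariate, and to 646 with the 2 groups alone. Leaving out single libraries gave 428 to 1566 calls in B10 and 107 (without NOD_insHEL replicate 1) to 1522 in NOD. The interaction had 161 calls without the filter, 67 with DESeq2, 50 with the acinar score, 4 with the islet number and 2 to 162 without single libraries.

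Differences that changed sign had not passed a test. Adding islet number as a covariate, the transgene difference in B10 was -0.14 for Trim12c, 0.0017 for Trim5, -0.0455 for Trim30a and -0.0958 for the Trim30 sum. With the acinar score it was 0.21 for Trim5, 0.26 for Trim30d and 0.0829 for the sum of Trim12a, Trim12c and Trim5 in B10, 0.12 for Trim34a in NOD, and -0.0272 for the interaction of that sum. Without single libraries, the transgene difference in B10 ranged from -0.0566 to 0.20 for Trim12c, -0.31 to 0.0742 for Trim5, -0.0696 to 0.17 for Trim30a, -0.50 to 0.11 for Trim30d, -0.30 to 0.25 for Trim34a, -0.18 to 0.0526 for the sum of Trim12a, Trim12c and Trim5 and -0.13 to 0.13 for the Trim30 sum. In NOD it ranged from -0.52 to 0.0139 for Trim12c, -0.26 to 0.72 for Trim5, -0.31 to 0.19 for Trim34a and -0.23 to 0.27 for the sum of the first 3 genes, and the interaction from -0.18 to 0.80 for Trim5, -0.40 to 0.19 for Trim34a and -0.17 to 0.33 for that sum. The cause was not tested.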
